A study of Arabidopsis thaliana with 15 samples.

Results

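Leaf mRNA of the Arabidopsis thaliana line prp4k3 was compared with that of wild-type Col-0 over every nuclear gene, and the account covers gene functions other than immune defence and photosynthesis. The part consists of the 28496 rows of the RNA count table whose locus lies on one of the nuclear chromosomes, of 73194 rows in all; the 44698 organelle, transposable-element (AT.TE) and other non-coding (At.NC) rows were set aside before scaling. Of these nuclear genes, 23382 had at least 1 count and 18203 passed the filter on low counts and were tested. The series addresses PRP4KA, phosphorylation of SERRATE and RNA processing, and also holds small RNA libraries that were not analysed here. The prp4k3 group was 3 libraries of a line that the design text gives as amiR-PRP4K3, an artificial microRNA construct. The Col-0 group was 3 libraries of the wild type. Both groups were total RNA from leaves of plants 3 weeks old without treatment. The promoter of the construct, the number of independent lines, the number of plants pooled per library and whether Col-0 carried an empty construct are not stated in the labels. Nothing states that the libraries of a group came from separate cultures, so the p-values measure the spread between these libraries, which may be technical.

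PRP4 kinases phosphorylate splicing factors and take part in the activation of the spliceosome, the machine that removes introns from primary transcripts. The artificial microRNA is a designed small RNA that guides ARGONAUTE proteins to matching transcripts. A growing leaf draws on nuclear genes for protein synthesis in plastids and cytosol, for walls, lipids and sugars, and for hormone and light responses, and those functions are described in turn. Levels are given as CPM, the scaled count of a gene set against all nuclear counts of its library, which are not divided by gene length and so are compared between libraries and not between genes.

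The libraries held 16041754 to 19344157 counts in all, of which nuclear genes took 59.3 to 61.0% in prp4k3 and 48.2 to 51.2% in Col-0. Between 21573 and 21748 nuclear genes had a count in the prp4k3 libraries, against 20601 to 20726 in the Col-0 libraries. A floor of 3 counts in 1 library corresponded to 0.240 to 0.256 CPM in prp4k3 and to 0.367 to 0.408 CPM in Col-0, covering counting error only. Spearman correlations of levels across genes, which are not independent replicates, were 0.978 to 0.992 among prp4k3 libraries, 0.979 to 0.986 among Col-0 libraries and 0.821 to 0.860 between the genotypes. The first principal component, which separated the genotypes, held 87.7% of the variance. Among the loci of the PRP4K family, AT3G25840 had 11.75, 10.999 and 11.69 CPM in prp4k3, against 20.4, 17.5 and 16.7 CPM in Col-0, a log2 fold change of -0.66 ± 0.13 (SE, adjusted p = 0.00159), or -0.11 (adjusted p = 0.504) on total counts alone. AT1G13350 had 6.47, 8.19 and 9.50 CPM in prp4k3, against 11.4, 9.42 and 10.9 CPM in Col-0, and did not pass the test (-0.39 ± 0.18, adjusted p = 0.0782); without prp4k3 library 3 it was -0.53 (adjusted p = 0.0384). AT3G53640 had 0 counts in these libraries.

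Most nuclear genes differed between prp4k3 and Col-0. The quasi-likelihood test of edgeR, adjusted by Benjamini-Hochberg over all tested genes, called 11966 genes (65.7% of those tested), of which 6291 (34.6%) were higher and 5675 (31.2%) were lower in prp4k3. A stricter test, for a change larger than 2-fold, called 3644 genes (20.0%), 2167 higher (11.9%) and 1477 lower (8.11%). For 12809 genes (70.4%) the 3 libraries of the genotypes did not overlap. The middle of the distribution was close to no change, its median log2 fold change being 0.04 and its quartiles -0.61 and 0.77, and the upper tail was the longer one, with -2.45 at the lowest 1% and 4.93 at the highest 1%. Counts of members below are to be read against these shares, since a list with shares called close to these stands where all genes stand.

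The direction of change went with the level of the gene. Of the 105 genes with a mean of 1000 CPM or more, 69 (65.7%) passed the 2-fold test as lower and 2 (1.90%) as higher, with a median log2 fold change of -1.50. Between 100 and 1000 CPM, 291 of 1396 genes (20.8%) were lower and 121 (8.67%) higher. Between 10 and 100 CPM the shares were 722 of 9688 (7.45%) lower and 1031 (10.6%) higher, and between 1 and 10 CPM they were 389 of 6772 (5.74%) lower and 907 (13.4%) higher. The 242 genes under 1 CPM passed the filter only through the genotype where they were high, so their 106 rises against 6 falls had to differ. The same holds at higher means for genes nearly silent in Col-0, such as NAC044, NAC085, ACS2, GLP9, MSRB8, PGAZAT, LHT7 and BG3 below. In reverse, XTH17 below was nearly silent in prp4k3 and passed only through Col-0. The 105 most abundant genes held 23.8, 24.3 and 24.5% of nuclear counts in the prp4k3 libraries, against 42.0, 41.9 and 42.6% in the Col-0 libraries.

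**Figure D1:**
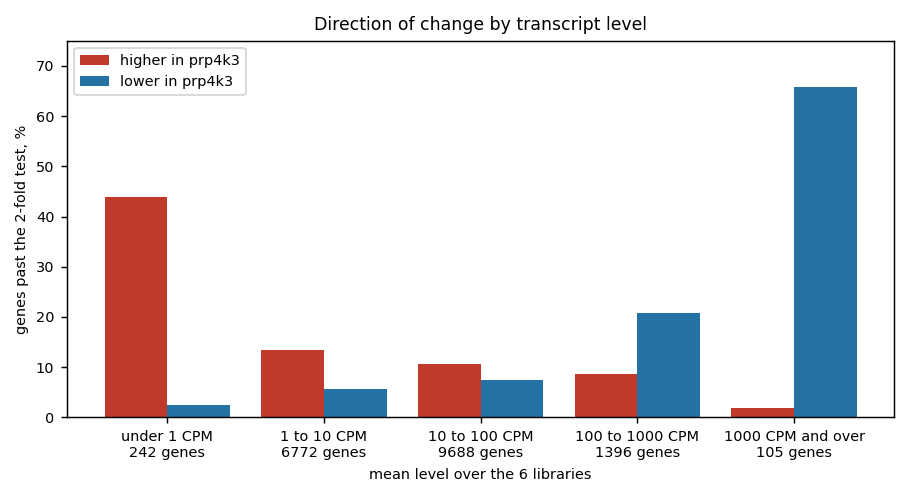
Share of tested nuclear genes past the 2-fold test (vertical axis, percent) by mean level over the 6 libraries (horizontal axis, CPM), with genes higher in prp4k3 in red and lower in prp4k3 in blue. The blue bar reaches 65.7% for the 105 genes of 1000 CPM and over, where the red bar is 1.90%; the bin under 1 CPM holds genes that passed the filter only through one genotype.

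That fall of abundant transcripts bears on scaling, and therefore on every direction below. The scaling used (trimmed mean of M values, TMM) multiplied prp4k3 library sizes by 1.20 to 1.23 and Col-0 library sizes by 0.81 to 0.83. Scaling by the total nuclear count alone moved the median log2 fold change up by 0.56, so that 10238 genes were called higher and 2678 lower (79.3% higher of those called, against 52.6%), and 4448 passed the 2-fold test as higher and 503 as lower (89.8% higher, against 59.5%). Values below are from TMM scaling. A list median whose direction turned on total counts is marked where it is given. So is a gene that turned and was called on either scaling. Of the genes called lower below, GH9A1 (-0.19), CLA1 (-0.07), BBX15 (-0.10), PDF1 (-0.32), CAF1a (-0.24), CAT2 (-0.07) and FRO1 (-0.03) kept their direction on total counts but were not called, with adjusted p from 0.0808 to 0.827. The same held for the cell type marker genes PP2-A1 (-0.11), SPCH (-0.19), TMM (-0.32) and EPF1 (-0.66), with adjusted p from 0.0541 to 0.442.

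Genes that leaf laboratories use as references in quantitative PCR were called in both directions, as were all tested genes. Of 12 reference genes, 5 were called higher and 4 lower, beside 34.6% and 31.2% of all tested genes. The 2-fold test passed 0 of them in either direction, against 20.0% of all tested genes. Their log2 fold changes, from -1.15 to 1.22, lay within the 10% and 90% points of all tested genes (-1.25 and 1.58). The median log2 fold change was -0.05, which became 0.51 on total counts. UBQ5, a ubiquitin fused to a ribosomal protein, had 233, 215 and 249 CPM in prp4k3, against 230, 213 and 255 CPM in Col-0, a log2 fold change of 0.00 ± 0.11 (adjusted p = 0.993) that became 0.56 on total counts. The polyubiquitin UBQ10 had 1590, 2191 and 1721 CPM in prp4k3, against 905, 686 and 770 CPM in Col-0 (1.22 ± 0.15, adjusted p = 6.91e-05). So UBQ5 overlapped between genotypes while UBQ10 did not, its lowest prp4k3 library lying above its highest Col-0 library.

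The actins went apart from each other. ACT2 had 396, 549 and 371 CPM in prp4k3, against 938, 981 and 999 CPM in Col-0 (-1.15 ± 0.15, adjusted p = 9.91e-05). ACT7 had 221, 204 and 241 CPM in prp4k3, against 106, 115 and 135 CPM in Col-0 (0.91 ± 0.12, adjusted p = 0.000141). Neither pair of groups overlapped. ACT2 shares long stretches with ACT8, so reads may have been split between them; ACT8 was at -0.42 ± 0.15 (adjusted p = 0.0276), a call lost without prp4k3 library 1, prp4k3 library 3 or Col-0 library 2, and at 0.13 on total counts. The peroxisomal ubiquitin-conjugating enzyme gene PEX4 (-1.05 ± 0.10) and UBC9 (-0.88 ± 0.10) fell, and the ubiquitin ligase gene UPL7 (1.05 ± 0.16), the phosphatase subunit gene PP2AA3 (0.47 ± 0.11) and PTB1 (0.47 ± 0.12) rose. YLS8 (-0.23 ± 0.10, adjusted p = 0.0622) and the glyceraldehyde-3-phosphate dehydrogenase gene GAPC2 (-0.10 ± 0.11, adjusted p = 0.416) did not pass the test, and their values became 0.32 and 0.46 on total counts.

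**Figure D2:**
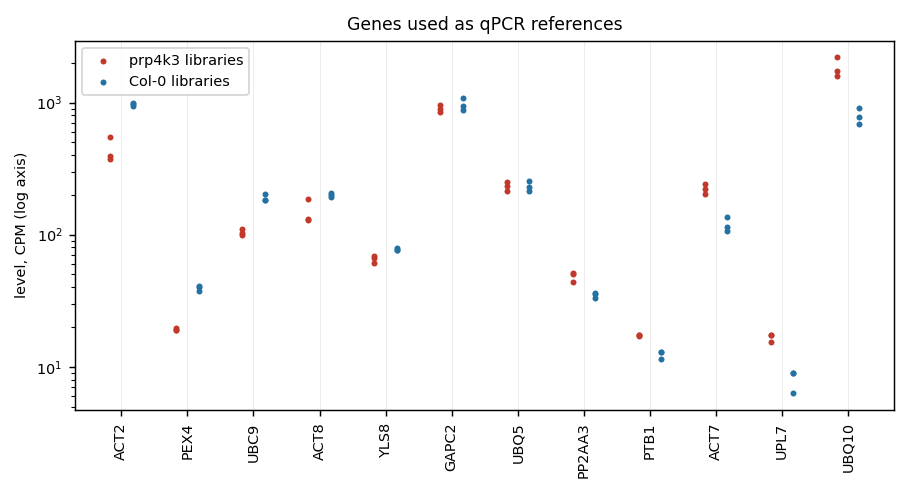
Level in each library (vertical axis, CPM, log axis) of the 12 reference genes (horizontal axis), with prp4k3 libraries in red left of Col-0 libraries in blue, ordered by log2 fold change. ACT2 lies lowest in prp4k3 relative to Col-0 and UBQ10 highest, and UBQ5 overlaps between the genotypes; with total-count scaling each red group would sit higher, with ACT8, YLS8, GAPC2 and UBQ5 then on the higher side in prp4k3.

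Protein synthesis genes divided by compartment, with plastid ribosomal proteins lower in prp4k3, nucleolar ribosome assembly factors higher, and cytosolic ribosomal proteins little moved. Plastids translate their own genome on bacterial-type ribosomes, many of whose proteins are encoded in the nucleus and imported. All 31 nuclear-encoded plastid ribosomal proteins of the list were tested, 31 were called lower, and 25 passed the 2-fold test, with a median log2 fold change of -1.51 (-0.95 on total counts, where 29 were called lower and 6 passed the 2-fold test). PSRP4, a plastid-specific protein of the small subunit, had 122, 122 and 122 CPM in prp4k3, against 484, 467 and 476 CPM in Col-0 (-1.97 ± 0.09, adjusted p = 4.92e-07). RPL15, a protein of the large subunit, had 401, 401 and 439 CPM in prp4k3, against 1154, 1130 and 1196 CPM in Col-0 (-1.49 ± 0.09, adjusted p = 1.54e-06). In both genes the highest prp4k3 library lay far below the lowest Col-0 library, which was a condition for choosing PSRP4. Libraries were apart in all 31 members, against 70.4% of all tested genes. Summed over the list, plastid ribosomal protein transcripts took 6240, 5999 and 6517 CPM in prp4k3, against 17899, 18428 and 17665 CPM in Col-0.

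The nucleolus is where ribosomal RNA is transcribed, trimmed and first bound by ribosomal proteins. Of 16 ribosome biogenesis genes tested, 14 were called higher and 1 lower, and 5 passed the 2-fold test, with a median log2 fold change of 1.16 (1.72 on total counts). The 5 were NUC-L1, NOP56, PUM24, EDA25 and NSN1. EDA25, also known as SLOW WALKER2 and related to a yeast protein of ribosome export, had 25.7, 19.4 and 28.0 CPM in prp4k3, against 4.21, 3.43 and 4.37 CPM in Col-0 (2.61 ± 0.19, adjusted p = 3.81e-06). NUC-L1, a nucleolin that organises ribosomal DNA chromatin, had 212, 132 and 240 CPM in prp4k3, against 67.3, 61.4 and 81.5 CPM in Col-0 (1.48 ± 0.21, adjusted p = 0.000209). NOP56, a core protein of the particles that methylate ribosomal RNA, had 125, 74.9 and 132 CPM in prp4k3, against 20.2, 21.4 and 24.1 CPM in Col-0, a log2 fold change of 2.34. For all 3 genes prp4k3 library 2 was the lowest of its group, yet above each Col-0 library. EDA25 was picked with libraries apart, and NOP56 was named after its values were seen. The rRNA dimethylase gene DIM1A was the member called lower (-0.45 ± 0.12, adjusted p = 0.00873), with 24.1, 21.2 and 22.6 CPM in prp4k3 and 34.2, 30.2 and 28.1 CPM in Col-0, and it was at 0.11 on total counts. Summed over the list, prp4k3 had 912, 666 and 955 CPM, against 391.8, 375 and 440 CPM in Col-0.

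**Figure D3:**
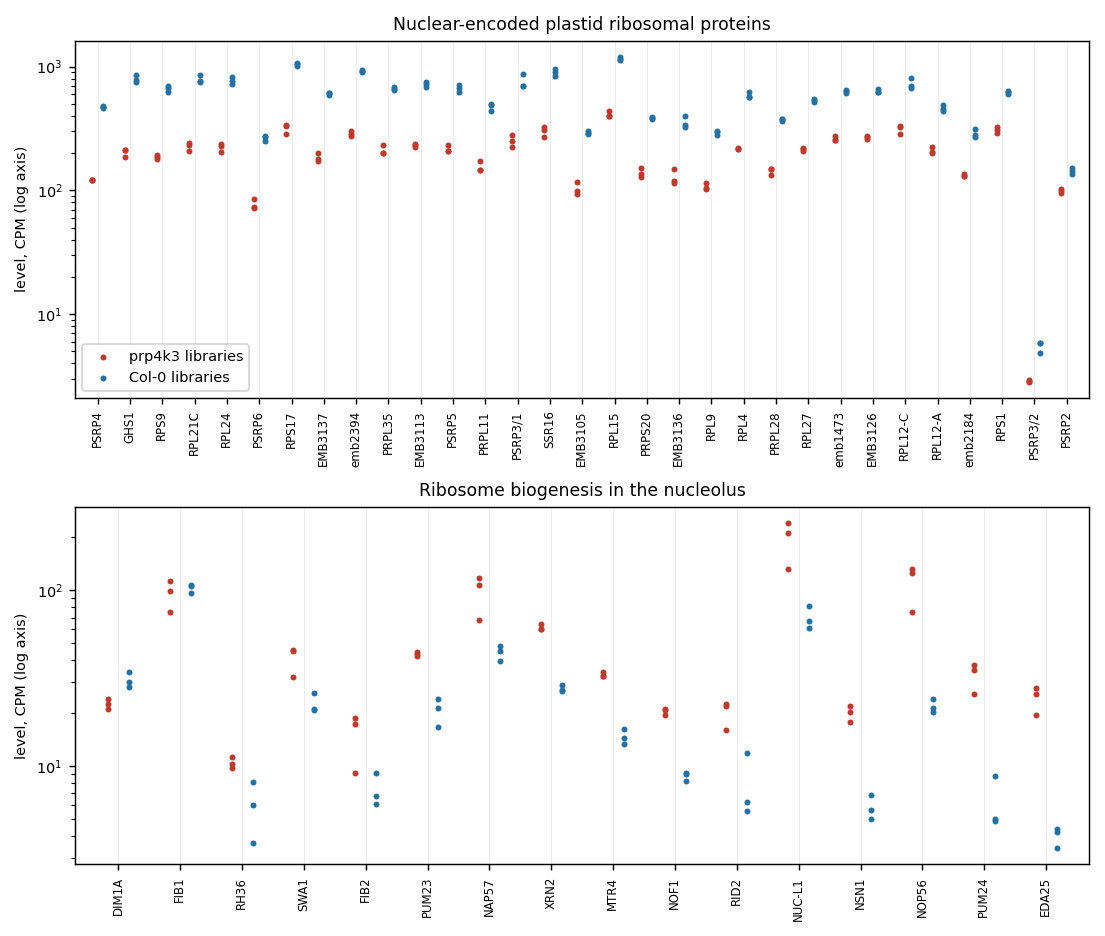
Level in each library (vertical axes, CPM, log axis) of the nuclear-encoded plastid ribosomal proteins (upper panel) and of ribosome biogenesis genes (lower panel), prp4k3 libraries in red left of Col-0 libraries in blue, each panel ordered by log2 fold change. Of the upper panel's 31 genes 31 were called lower in prp4k3, and of the lower panel's 16 genes 14 were called higher; DIM1A, the member called lower, was at 0.11 on total counts.

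Cytosolic ribosomal proteins moved little. Of 37 tested, 5 were called higher and 14 lower, and their median on the log2 scale was -0.23, which became 0.33 on total counts, where 20 were called higher and 1 lower. Their summed level overlapped between genotypes, at 6663, 5954 and 7398 CPM in prp4k3 and 7128, 6544 and 7342 CPM in Col-0. Many of these proteins are encoded by near-identical gene copies, so values of single copies are uncertain. RPS15A had 118, 121 and 130 CPM in prp4k3, against 275, 247 and 269 CPM in Col-0 (-1.10 ± 0.10, adjusted p = 1.19e-05). RPSAb, one of a pair of genes for a small-subunit protein, had 8.95, 6.91 and 7.74 CPM in prp4k3, against 2.58, 3.67 and 3.05 CPM in Col-0 (1.34 ± 0.20, adjusted p = 0.000283). Its partner P40 had 448, 361 and 501 CPM in prp4k3 and 494, 481 and 533 CPM in Col-0, overlapping groups that did not pass the test (-0.20 ± 0.13, adjusted p = 0.184), and the value became 0.36 on total counts.

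Translation factors, which load ribosomes on mRNA and drive elongation, were more often higher. Of 32 tested, 17 were called higher and 6 lower, and 5 passed the 2-fold test, with a median of 0.36 (0.92 on total counts, where 27 were called higher and 1 lower). Those 5 were EIF4G, EIF3C, EIF3A, TIF3C2 and ABCF1, of which 4 are initiation factor genes. EIF3A had 161, 176 and 160 CPM in prp4k3, against 41.7, 49.7 and 52.9 CPM in Col-0 (1.78 ± 0.12, adjusted p = 2.27e-06). EIF3C, another subunit of the complex that binds the small ribosomal subunit, had 265, 249 and 268 CPM in prp4k3, against 70.4, 80.6 and 86.8 CPM in Col-0, a log2 fold change of 1.72. TIF3C2, a second gene for that subunit, had 59 counts in prp4k3 and 0 in Col-0, at least 12.6-fold higher against a floor of 3 counts over the Col-0 group. It passed the filter on low counts only through prp4k3, so it had to come out higher. The elongation factor gene LOS1 had 1296, 1208 and 1332 CPM in prp4k3, against 581, 638 and 708 CPM in Col-0 (0.99 ± 0.10, adjusted p = 2.94e-05). TOR, the kinase that couples nutrients to ribosome synthesis, had 94.5, 102 and 94.96 CPM in prp4k3, against 50.4, 49.3 and 41.5 CPM in Col-0, a log2 fold change of 1.05. The ribosomal protein kinase gene PK1 had 149, 234.1 and 135 CPM in prp4k3, against 327, 499 and 542 CPM in Col-0 (-1.40 ± 0.24, adjusted p = 0.000595), so this kinase of the TOR pathway fell while TOR itself rose.

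Growing leaf cells loosen and rebuild their walls. XTH enzymes cut and rejoin xyloglucan, the polymer that tethers cellulose. Of 34 xyloglucan genes 25 were tested, 4 were called higher and 11 lower, and 8 passed the 2-fold test as lower, with a median of -0.31 that became 0.25 on total counts, where 10 were called higher and 8 lower. The 8 were XTH33, XTH8, XTH17, XTH4, XTH32, XTH31, XTH7 and XTH6. XTH4 had 153, 177 and 154 CPM in prp4k3, against 785, 791 and 681 CPM in Col-0 (-2.22 ± 0.11, adjusted p = 6.8e-07). XTH6 had 85.5, 101 and 60.1 CPM in prp4k3, against 653, 584 and 400 CPM in Col-0, a log2 fold change of -2.73. XTH17 had 0.240, 0.426 and 0.252 CPM in prp4k3, at or near the floor of 3 counts, against 5.98, 7.71 and 6.62 CPM in Col-0 (-4.42 ± 0.29, adjusted p = 2.14e-06). It passed the filter on low counts only through Col-0, so it had to come out lower. The other way, 2 members passed the 2-fold test, XTH10 with the largest rise of the list. XTH10 had 26.6, 20.0 and 33.9 CPM in prp4k3, against 1.495, 1.35 and 2.91 CPM in Col-0 (3.81 ± 0.30, adjusted p = 5.34e-06).

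Cellulose synthase complexes spin the load-bearing fibres of the wall. Of 11 cellulose synthesis genes tested, 2 were called higher and 5 lower, with a median of -0.10 that became 0.46 on total counts, where 7 were called higher. The higher calls fell to 0 or 1 without prp4k3 library 1 or any one of the Col-0 libraries, and the lower calls to 3 without prp4k3 library 3 or Col-0 library 3. The endoglucanase gene GH9A1, whose product works beside the cellulose synthase complex, had 267, 286 and 236 CPM in prp4k3, against 448, 470 and 408 CPM in Col-0 (-0.75 ± 0.11, adjusted p = 0.000237). IRX1, a secondary-wall cellulose synthase gene, had 5.35, 4.01 and 6.31 CPM in prp4k3, against 3.26, 3.92 and 2.65 CPM in Col-0 (0.67 ± 0.24, adjusted p = 0.033); the call was lost without library 1 or library 3 of either genotype. Tubulins and actins, whose filaments guide wall deposition, had 3 called higher and 10 lower of 21 tested, with a median of -0.26 that became 0.29 on total counts. TUB1 had 1.52, 1.28 and 1.68 CPM in prp4k3, against 5.03, 6.61 and 5.83 CPM in Col-0 (-1.96 ± 0.22, adjusted p = 4.71e-05).

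Lignin and phenylpropanoid genes were called in both directions, and HCT and CCR2 below were picked as the largest called fall and rise. Of 19 tested, 3 were called higher and 5 lower, with a median of -0.27 that became 0.29 on total counts. HCT, which makes the shikimate esters on the way to lignin monomers, had 145, 159 and 117 CPM in prp4k3, against 366, 412 and 350 CPM in Col-0 (-1.42 ± 0.13, adjusted p = 1.45e-05). CCR2, one of the cinnamoyl-CoA reductases, had 18.2, 16.2 and 19.6 CPM in prp4k3, against 5.57, 2.08 and 7.68 CPM in Col-0 (1.83 ± 0.32, adjusted p = 0.000729). The methyltransferase gene CCoAOMT1 overlapped between the genotypes (0.30 ± 0.15, adjusted p = 0.1).

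The surface of the leaf is sealed by cutin and wax made in the epidermis from very long fatty acids. Of 25 cuticle genes tested, 1 was called higher and 18 lower, with a median of -0.85 (-0.29 on total counts, where 4 were called higher and 11 lower); 3 were called higher without prp4k3 library 2 and 2 without Col-0 library 3. CYP86A2, a fatty acid hydroxylase of cutin synthesis, had 138, 165 and 155 CPM in prp4k3, against 559, 504 and 569 CPM in Col-0 (-1.84 ± 0.11, adjusted p = 1.3e-06). KCS6, which elongates fatty acids for wax, had 279, 298 and 266 CPM in prp4k3, against 629, 619 and 480 CPM in Col-0 (-1.04 ± 0.12, adjusted p = 6.59e-05). LACS1, an acyl-CoA synthetase, was the member that rose, with 67.2, 68.2 and 53.2 CPM in prp4k3, against 38.9, 40.0 and 45.8 CPM in Col-0 (0.60 ± 0.13, adjusted p = 0.00275). Epidermal markers moved alongside. PDF1, made in the outermost cell layer, was called lower (-0.88 ± 0.14, adjusted p = 0.000509), as was ATML1, the regulator of that layer (-0.36 ± 0.10, adjusted p = 0.00889), though ATML1 was at 0.20 on total counts. Summed epidermal markers took 126, 111 and 114 CPM in prp4k3, against 181, 174 and 173 CPM in Col-0. In bulk leaf RNA, fewer cells of a type and less RNA per cell cannot be told apart, and the part of the markers in the cuticle result was not tested.

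Fatty acids are made in plastids and then desaturated and built into membrane lipids there and in the endoplasmic reticulum. Of 26 genes tested, 4 were called higher and 16 lower, and 6 passed the 2-fold test as lower, with a median of -0.72 (-0.16 on total counts, where 9 were called higher and 11 lower). The 6 were ACP4, CAC2, FAD2, FAD3, FADA and FAD5. FADA, the desaturase of plastid phosphatidylglycerol, had 54.4, 89.2 and 44.9 CPM in prp4k3, against 280, 342 and 319 CPM in Col-0 (-2.32 ± 0.23, adjusted p = 2.11e-05). ACP4, the main leaf acyl carrier protein, had 296, 281 and 292 CPM in prp4k3, against 1162, 1196 and 1023 CPM in Col-0 (-1.96 ± 0.10, adjusted p = 7.1e-07). Both pairs of groups were wide apart, which was a condition for choosing FADA but not ACP4, the most counted member. DGD2, a galactolipid synthase used under phosphate shortage, had 20.0, 20.4 and 20.0 CPM in prp4k3, against 4.21, 7.59 and 5.96 CPM in Col-0 (1.76 ± 0.19, adjusted p = 3.4e-05).

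Plastid isoprenoid synthesis supplies carotenoids, tocopherols and hormone precursors. Of 28 genes tested, 1 was called higher and 21 lower, with a median of -0.64 (-0.08 on total counts, where 5 were called higher and 11 lower). BETA-OHASE 2, a carotene hydroxylase, had 30.7, 49.6 and 24.8 CPM in prp4k3, against 138, 161 and 160 CPM in Col-0 (-2.12 ± 0.23, adjusted p = 3.28e-05). CLA1, the entry enzyme of the plastid pathway, had 438, 441 and 451 CPM in prp4k3, against 755, 701 and 589 CPM in Col-0 (-0.62 ± 0.11, adjusted p = 0.000783). HPT1, the prenyltransferase of tocopherol synthesis, had 24.0, 28.3 and 26.9 CPM in prp4k3, against 15.8, 14.2 and 15.6 CPM in Col-0 (0.80 ± 0.12, adjusted p = 0.000331), and it was the member that rose.

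Light signalling genes changed in both directions. Of 39 tested, 8 were called higher and 16 lower, and 7 passed the 2-fold test as lower, with a median of -0.36 that became 0.19 on total counts, where 14 were called higher and 10 lower. Of the 7, HY5 encodes the bZIP factor that promotes greening in light and the other 6, BBX16, BBX28, BBX29, BBX30, BBX31 and BBX32, encode B-box zinc finger proteins. Without prp4k3 library 2, 11 passed the 2-fold test as lower. BBX32 had 36.5, 60.9 and 25.4 CPM in prp4k3, against 332, 390 and 311 CPM in Col-0 (-3.07 ± 0.28, adjusted p = 1.19e-05). HY5 had 12.5, 37.1 and 7.74 CPM in prp4k3, against 100, 161 and 117 CPM in Col-0 (-2.72 ± 0.47, adjusted p = 0.000701). In both genes prp4k3 library 2 was the highest of its group, still well below the lowest Col-0 library. BBX32 was picked with libraries apart, and HY5 was named after its values were seen. The photoreceptor gene PHYD went the other way, with 23.7, 25.4 and 26.1 CPM in prp4k3, against 9.11, 9.30 and 13.6 CPM in Col-0 (1.23 ± 0.17, adjusted p = 0.000144). BBX15 had 189, 210 and 182 CPM in prp4k3, against 375, 245 and 293 CPM in Col-0 (-0.65 ± 0.15, adjusted p = 0.00395).

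**Figure D4:**
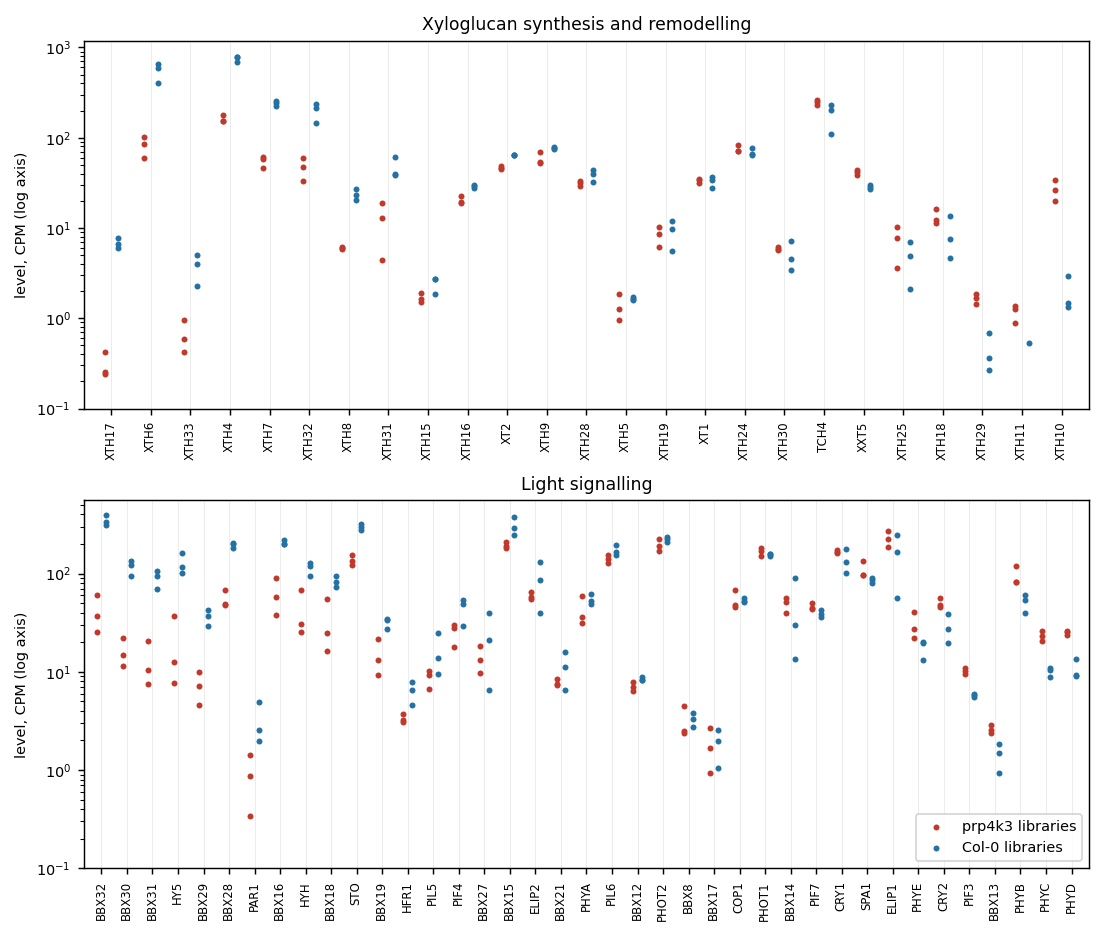
Level in each library (vertical axes, CPM, log axis) of xyloglucan genes (upper panel) and light signalling genes (lower panel), prp4k3 libraries in red left of Col-0 libraries in blue, ordered by log2 fold change. Of the xyloglucan genes 11 of 25 and of the light genes 16 of 39 were called lower in prp4k3, among them XTH4 and BBX32, and the medians of both lists turned from negative to positive on total counts; Col-0 libraries of XTH11 with 0 counts are not drawn on the log axis.

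Auxin, the hormone of growth and patterning, acts through Aux/IAA repressors that it makes unstable and that it also induces. Of 35 Aux/IAA, GH3, PIN and YUC genes tested among 51, 3 were called higher and 16 lower, with a median of -0.51 that became 0.05 on total counts, where 8 were called higher and 13 lower. The Aux/IAA genes IAA8, IAA7, AXR3 and SHY2 passed the 2-fold test as lower. SHY2 had 22.5, 34.6 and 17.2 CPM in prp4k3, against 125, 120 and 100 CPM in Col-0 (-2.21 ± 0.23, adjusted p = 2.58e-05). IAA7 had 76.4, 94.2 and 73.6 CPM in prp4k3, against 206, 215 and 183 CPM in Col-0 (-1.31 ± 0.13, adjusted p = 1.86e-05). GH3.3 and DFL1, whose enzymes join auxin to amino acids, passed as higher. GH3.3 had 22.5, 20.2 and 20.6 CPM in prp4k3, against 3.81, 2.202 and 3.31 CPM in Col-0 (2.77 ± 0.19, adjusted p = 2.52e-06).

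Cytokinin signals through type-A response regulators (ARR), which it induces within minutes and which dampen it. Of 37 cytokinin genes tested among 52, 7 were called higher and 17 lower, with a median of -0.39 that became 0.17 on total counts, where 12 were called higher and 11 lower. The genes past 2-fold on the lower side were ARR15, ARR9, ARR6, CRF1, CRF2, LOG1 and LOG6. ARR15 had 3.68, 3.67 and 3.20 CPM in prp4k3, against 35.6, 28.4 and 18.7 CPM in Col-0 (-2.97 ± 0.24, adjusted p = 6.61e-06). ARR4 had 98.1, 85.1 and 92.4 CPM in prp4k3, against 194, 173 and 105 CPM in Col-0 (-0.77 ± 0.20, adjusted p = 0.00692), with Col-0 library 3 close to the prp4k3 group, and was not called on total counts (-0.22, adjusted p = 0.357). CRF6, another cytokinin response factor, had 44.3, 37.6 and 47.1 CPM in prp4k3, against 17.4, 15.2 and 21.5 CPM in Col-0 (1.26 ± 0.15, adjusted p = 7.09e-05).

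Gibberellin promotes growth by removing DELLA repressors. Of 18 genes tested, 2 were called higher and 8 lower, and 5 passed the 2-fold test as lower, with a median of -0.62 (-0.06 on total counts, where 4 were called higher and 7 lower). The 5 were the DELLA genes RGA1 and RGL1 and the gibberellin-responsive peptide genes GASA1, GASA4 and GASA6. RGL1 had 7.11, 7.93 and 7.40 CPM in prp4k3, against 32.8, 46.2 and 48.7 CPM in Col-0 (-2.51 ± 0.17, adjusted p = 2.4e-06). GASA1 had 80.2, 136 and 85.5 CPM in prp4k3, against 414, 408 and 388 CPM in Col-0 (-2.003 ± 0.19, adjusted p = 1.54e-05). The receptor gene GID1B rose, with 13.7, 14.1 and 18.2 CPM in prp4k3, against 5.84, 6.24 and 8.48 CPM in Col-0 (1.16 ± 0.19, adjusted p = 0.000489).

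Brassinosteroids are steroid hormones of cell expansion. Of 16 genes of their synthesis and signalling tested, 4 were called higher and 8 lower, with a median of -0.74 (-0.18 on total counts, where 7 were called each way). CPD, a cytochrome P450 of brassinosteroid synthesis, had 35.3, 53.5 and 38.5 CPM in prp4k3, against 190, 119 and 105 CPM in Col-0 (-1.70 ± 0.24, adjusted p = 0.00017). DWF1, the sterol reductase upstream of it, had 188, 181 and 190 CPM in prp4k3, against 386, 402 and 420 CPM in Col-0 (-1.11 ± 0.09, adjusted p = 7.59e-06). BRL3, a brassinosteroid receptor of vascular cells, had 46.3, 46.1 and 45.9 CPM in prp4k3, against 5.57, 5.14 and 5.30 CPM in Col-0 (3.11 ± 0.12, adjusted p = 3.49e-07). The libraries of each genotype lay very close together for BRL3, and libraries apart were a condition of its choice.

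Ethylene is made from methionine by ACC synthases (ACS) and an ACC oxidase. Of 17 ethylene genes tested, 9 were called higher and 3 lower, with a median of 0.41 (0.96 on total counts); the lower calls were 1 in each of the fits without prp4k3 library 1, prp4k3 library 3 or Col-0 library 2. The synthase genes ACS2, ACS7 and ACS8 and the receptor gene EIN4 passed the 2-fold test as higher. ACS2 had 6.55, 6.48 and 6.64 CPM in prp4k3, against 0.680, 0.122 and 0.265 CPM in Col-0 (4.19 ± 0.35, adjusted p = 8.16e-06), or 4.98 without Col-0 library 1. The oxidase gene EFE overlapped, with 241, 181 and 251 CPM in prp4k3 and 212, 214 and 207 CPM in Col-0 (0.09 ± 0.13, adjusted p = 0.563). RTE1, which promotes the activity of the receptor ETR1, had 2.08, 3.75 and 1.85 CPM in prp4k3, against 8.83, 9.05 and 6.76 CPM in Col-0 (-1.68 ± 0.27, adjusted p = 0.000416).

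Central carbon metabolism had higher genes of sugar breakdown. Of 17 glycolysis and fermentation genes tested, 11 were called higher and 1 lower, and 5 passed the 2-fold test, with a median of 0.57 (1.12 on total counts, where 14 were called higher). The 5 were PFK3, PFK7, LOS2, PPC1 and ADH1. PFK3, a cytosolic phosphofructokinase, had 35.1, 33.5 and 41.3 CPM in prp4k3, against 1.77, 1.84 and 3.18 CPM in Col-0 (4.01 ± 0.21, adjusted p = 7.35e-07). PPC1, a phosphoenolpyruvate carboxylase that refills the citric acid cycle, had 134, 152 and 158 CPM in prp4k3, against 30.0, 35.5 and 39.9 CPM in Col-0, a log2 fold change of 2.08. ADH1, the alcohol dehydrogenase of fermentation, had 7.91, 7.93 and 9.50 CPM in prp4k3, against 3.26, 3.06 and 2.52 CPM in Col-0, a log2 fold change of 1.52. PFK3 was picked with libraries apart, and PPC1 and ADH1 were named after their values were seen, so their separation is not a separate result. Libraries did not overlap in 70.4% of all tested genes. The triose phosphate isomerase gene TPI was the member called lower (-0.32 ± 0.10, adjusted p = 0.0185), a call lost without prp4k3 library 1 or Col-0 library 3, and it was at 0.24 on total counts.

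The respiratory chain and the citric acid cycle oxidise the products of glycolysis in mitochondria. Of 30 nuclear genes of these pathways tested, 15 were called higher and 5 lower, with a median of 0.30 (0.85 on total counts, where 25 were called higher). AAC2, a mitochondrial ADP/ATP carrier, had 15.6, 15.7 and 22.5 CPM in prp4k3, against 3.53, 1.59 and 4.90 CPM in Col-0 (2.43 ± 0.31, adjusted p = 0.000101). AAC1, the carrier with the most counts of the list, had 933, 874 and 1012 CPM in prp4k3 and 821, 848 and 969 CPM in Col-0, overlapping groups (0.10 ± 0.10, adjusted p = 0.438). FRO1, a subunit of respiratory complex I, had 48.4, 50.1 and 55.9 CPM in prp4k3, against 75.02, 76.2 and 80.0 CPM in Col-0 (-0.58 ± 0.10, adjusted p = 0.000796).

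Sugar metabolism and transport genes were called in both directions, beside 34.6% higher and 31.2% lower over all tested genes. Of 41 starch, sucrose, trehalose and sugar transport genes, 15 were called higher and 10 lower, with a median of 0.12 (0.68 on total counts). The hexose transporter gene MSS1 had 55.7, 55.8 and 72.8 CPM in prp4k3, against 5.98, 1.96 and 8.61 CPM in Col-0 (3.49 ± 0.34, adjusted p = 2.05e-05). STP1, a hexose transporter of the same family, had 55.9, 58.8 and 55.9 CPM in prp4k3, against 340, 250 and 198 CPM in Col-0 (-2.21 ± 0.18, adjusted p = 7.28e-06). MSS1 and STP1 were picked as the list's largest called rise and fall with libraries apart, so their separation and opposite directions followed from the choice. SUS1, a sucrose synthase, had 83.8, 118 and 92.4 CPM in prp4k3, against 13.998, 14.7 and 20.9 CPM in Col-0, a log2 fold change of 2.57. GBSS1, the starch synthase that makes amylose, had 231, 551 and 156 CPM in prp4k3, against 649, 863 and 1106 CPM in Col-0 (-1.48 ± 0.40, adjusted p = 0.00875), or -2.17 without prp4k3 library 2, its highest; on total counts it was not called (-0.93, adjusted p = 0.054).

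Genes known as markers of sugar starvation did not move as one group. Of 20 tested, 6 were called higher and 7 lower, with a median of -0.02 that became 0.53 on total counts; 4 were called lower without prp4k3 library 1. DIN2, a beta-glucosidase gene induced in the dark, had 55.0, 82.8 and 53.7 CPM in prp4k3, against 3.26, 0.856 and 0.927 CPM in Col-0 (5.26 ± 0.37, adjusted p = 2.79e-06), or 6.10 without Col-0 library 1. DIN10, a raffinose synthase relative induced in the dark, had 15.5, 27.9 and 17.2 CPM in prp4k3, against 158, 128 and 77.4 CPM in Col-0 (-2.59 ± 0.29, adjusted p = 4.48e-05). ASN1, the dark-induced asparagine synthetase gene, had 103, 255 and 97.7 CPM in prp4k3 and 119, 85.0 and 81.6 CPM in Col-0 (0.67 ± 0.34, adjusted p = 0.108); it was at 0.07 without prp4k3 library 2. DIN2 and DIN10 were picked as the largest called rise and fall of the list, so their opposite directions followed from the choice. Over all tested genes 34.6% were called higher and 31.2% lower.

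Autophagy encloses cytoplasm in vesicles for breakdown in the vacuole. Of 26 genes tested, 13 were called higher and 4 lower, with a median of 0.53 (1.08 on total counts, where 20 were called higher and 2 lower). ATG2, which supplies lipids to the growing vesicle, had 47.0, 45.0 and 55.0 CPM in prp4k3, against 17.7, 15.5 and 11.8 CPM in Col-0 (1.71 ± 0.16, adjusted p = 1.38e-05). NBR1, the receptor that brings ubiquitin-tagged cargo to the vesicle, had 265, 328 and 287 CPM in prp4k3, against 120, 127 and 124 CPM in Col-0 (1.24 ± 0.11, adjusted p = 1.04e-05). ATG18B, a lipid-binding member, had 4.88, 5.29 and 4.37 CPM in prp4k3, against 11.8, 12.5 and 10.9 CPM in Col-0 (-1.27 ± 0.15, adjusted p = 7.14e-05).

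Nutrient uptake genes were called in both directions, as were all tested genes, of which 34.6% were called higher and 31.2% lower. Of 23 nitrogen genes tested, 10 were called higher and 8 lower, with a median of 0.13 (0.68 on total counts). NIA2, the main leaf nitrate reductase, had 884, 993 and 830 CPM in prp4k3, against 2842, 2520 and 2074 CPM in Col-0 (-1.46 ± 0.13, adjusted p = 1.13e-05). NRT1.1, a nitrate transporter and sensor, had 71.7, 116 and 65.0 CPM in prp4k3, against 208, 235 and 312 CPM in Col-0 (-1.58 ± 0.23, adjusted p = 0.000221). NRT1.8, which draws nitrate back from the xylem, had 8.47, 13.1 and 15.1 CPM in prp4k3, against 1.36, 0.612 and 1.46 CPM in Col-0 (3.42 ± 0.34, adjusted p = 2.04e-05). GSR 1, a cytosolic glutamine synthetase, had 213, 179 and 220 CPM in prp4k3, against 17.3, 20.4 and 24.4 CPM in Col-0, a log2 fold change of 3.30. NRT1.8 and NRT1.1 were picked as the list's largest called rise and fall with libraries apart, so their separation and opposite directions followed from the choice. GSR 1 was named after its values were seen. NIA2, the most counted member, was also apart, as were 70.4% of all tested genes.

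Among 22 sulfur genes tested, 7 were called higher and 7 lower, with a median of 0.25 (0.80 on total counts). ATSDI1, a gene induced by sulfur deficiency, had 9.75, 7.25 and 10.9 CPM in prp4k3, against 1.90, 3.43 and 2.91 CPM in Col-0 (1.75 ± 0.25, adjusted p = 0.000201). OASB, the plastid cysteine synthase, had 79.4, 82.6 and 78.5 CPM in prp4k3, against 305, 319 and 306 CPM in Col-0 (-1.95 ± 0.10, adjusted p = 5.86e-07). APS1, the ATP sulfurylase that starts sulfate reduction, was called lower (-0.37 ± 0.11, adjusted p = 0.012) and was at 0.19 on total counts. Among 20 iron genes tested, 7 were called higher and 9 lower, with a median of -0.36 that became 0.19 on total counts. YSL3, which carries iron chelates out of ageing leaves, had 77.8, 87.8 and 90.8 CPM in prp4k3, against 26.2, 20.6 and 17.5 CPM in Col-0 (1.996 ± 0.15, adjusted p = 4.58e-06). FER4, a ferritin that stores iron, had 21.3, 32.7 and 21.0 CPM in prp4k3, against 102, 83.0 and 78.2 CPM in Col-0 (-1.81 ± 0.19, adjusted p = 2.66e-05).

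Peroxisomes break down fatty acids and carry out part of photorespiration. Of 30 peroxisomal genes tested, 12 were called higher and 11 lower, with a median of -0.06 that became 0.50 on total counts. The genes past 2-fold on the higher side were MFP2 and AIM1, multifunctional proteins of beta-oxidation, the acyl-CoA synthetase gene LACS7 and the catalase gene CAT1. LACS7 had 27.7, 32.5 and 34.8 CPM in prp4k3, against 5.44, 6.48 and 5.56 CPM in Col-0 (2.44 ± 0.15, adjusted p = 1.53e-06). The photorespiratory catalase gene CAT2 had 2049, 2313 and 1533 CPM in prp4k3, against 2650, 3236 and 3191 CPM in Col-0 (-0.62 ± 0.15, adjusted p = 0.00499).

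SNARE proteins fuse vesicles with their target membranes. Of 38 SNARE genes tested, 10 were called higher and 11 lower, with a median of -0.17 that became 0.39 on total counts. SNAP33, a SNARE of the plasma membrane, had 187, 170 and 193 CPM in prp4k3, against 44.6, 46.1 and 60.7 CPM in Col-0 (1.86 ± 0.14, adjusted p = 3.82e-06). SYP23, a syntaxin of the prevacuolar route, had 15.9, 18.2 and 14.1 CPM in prp4k3, against 59.8, 47.2 and 37.6 CPM in Col-0 (-1.58 ± 0.18, adjusted p = 4.63e-05). The members past 2-fold were SNAP33 on the higher side, and SYP23, VAMP724 and VTI1B on the lower side.

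Chromatin genes were mostly higher and histone genes mostly lower. Of 30 genes of Polycomb complexes, chromatin remodelling and histone modification, 21 were called higher and 4 lower, with a median of 0.90 (1.45 on total counts, where 27 were called higher and 1 lower). FAS1, a subunit of the factor that loads histones behind replication forks, had 11.99, 12.6 and 11.9 CPM in prp4k3, against 4.49, 2.94 and 4.50 CPM in Col-0 (1.62 ± 0.19, adjusted p = 5.13e-05). ARP6, a subunit of the complex that deposits H2A.Z, had 8.55, 6.05 and 7.40 CPM in prp4k3, against 18.2, 19.5 and 16.96 CPM in Col-0 (-1.31 ± 0.16, adjusted p = 7.24e-05). The histone deacetylase gene HD1 was called lower (-0.29 ± 0.10, adjusted p = 0.0266), a call lost without prp4k3 library 1, prp4k3 library 3 or Col-0 library 1, and was at 0.27 on total counts. Of 20 core and linker histone genes tested, 1 was called higher and 14 lower, with a median of -0.77 (-0.21 on total counts, where 5 were called higher and 7 lower). Reads of histone genes may be split between near-identical copies. HTA10, an H2A gene, had 57.5, 54.9 and 56.9 CPM in prp4k3, against 114, 154 and 186 CPM in Col-0 (-1.42 ± 0.16, adjusted p = 5.45e-05). HTB4, an H2B gene and the list's most counted member, did not pass the test (-0.21 ± 0.12, adjusted p = 0.134) and was at 0.34 on total counts.

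The DNA damage response was higher in most of its members. The NAC factor SOG1 transmits the signal of broken DNA to repair genes and cell cycle inhibitors. Of 16 genes tested, 12 were called higher and the other 4 were not called, and 5 passed the 2-fold test, with a median of 1.11 (1.67 on total counts). SOG1 itself had 12.5, 13.2 and 13.96 CPM in prp4k3, against 4.08, 4.04 and 4.64 CPM in Col-0, a log2 fold change of 1.63. PARP2, the polymerase that marks DNA breaks with ADP-ribose chains, had 9.83, 13.0 and 12.4 CPM in prp4k3, against 1.63, 1.101 and 1.99 CPM in Col-0 (2.90 ± 0.24). The break end-binding protein gene KU70 also passed the 2-fold test. NAC044 and NAC085, NAC genes that act downstream of SOG1 in cell cycle arrest, were almost silent in Col-0. NAC044 had 7.83, 4.09 and 7.57 CPM in prp4k3, against 0, 0.612 and 0.133 CPM in Col-0 (4.58 ± 0.57, adjusted p = 8.61e-05), or 6.34 without Col-0 library 2. NAC085 had 166 counts in prp4k3 and 0 in Col-0, at least 35.3-fold higher against a floor of 3 counts over the Col-0 group. NAC044 and NAC085 passed the filter on low counts only through prp4k3, so they had to come out higher. TSO2, a ribonucleotide reductase subunit that supplies DNA precursors, had 76.2, 88.3 and 76.6 CPM in prp4k3, against 39.4, 43.9 and 64.6 CPM in Col-0 (0.70 ± 0.18, adjusted p = 0.00577).

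Genes of mRNA decay, quality control and 3' end formation were shifted upward. Of 27 tested, 13 were called higher and 2 lower, with a median of 0.47 (1.03 on total counts, where 25 were called higher). CAF1a, a deadenylase that shortens poly(A) tails, had 146, 185 and 168 CPM in prp4k3, against 311, 219 and 335 CPM in Col-0 (-0.80 ± 0.16, adjusted p = 0.00196).

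**Figure D5:**
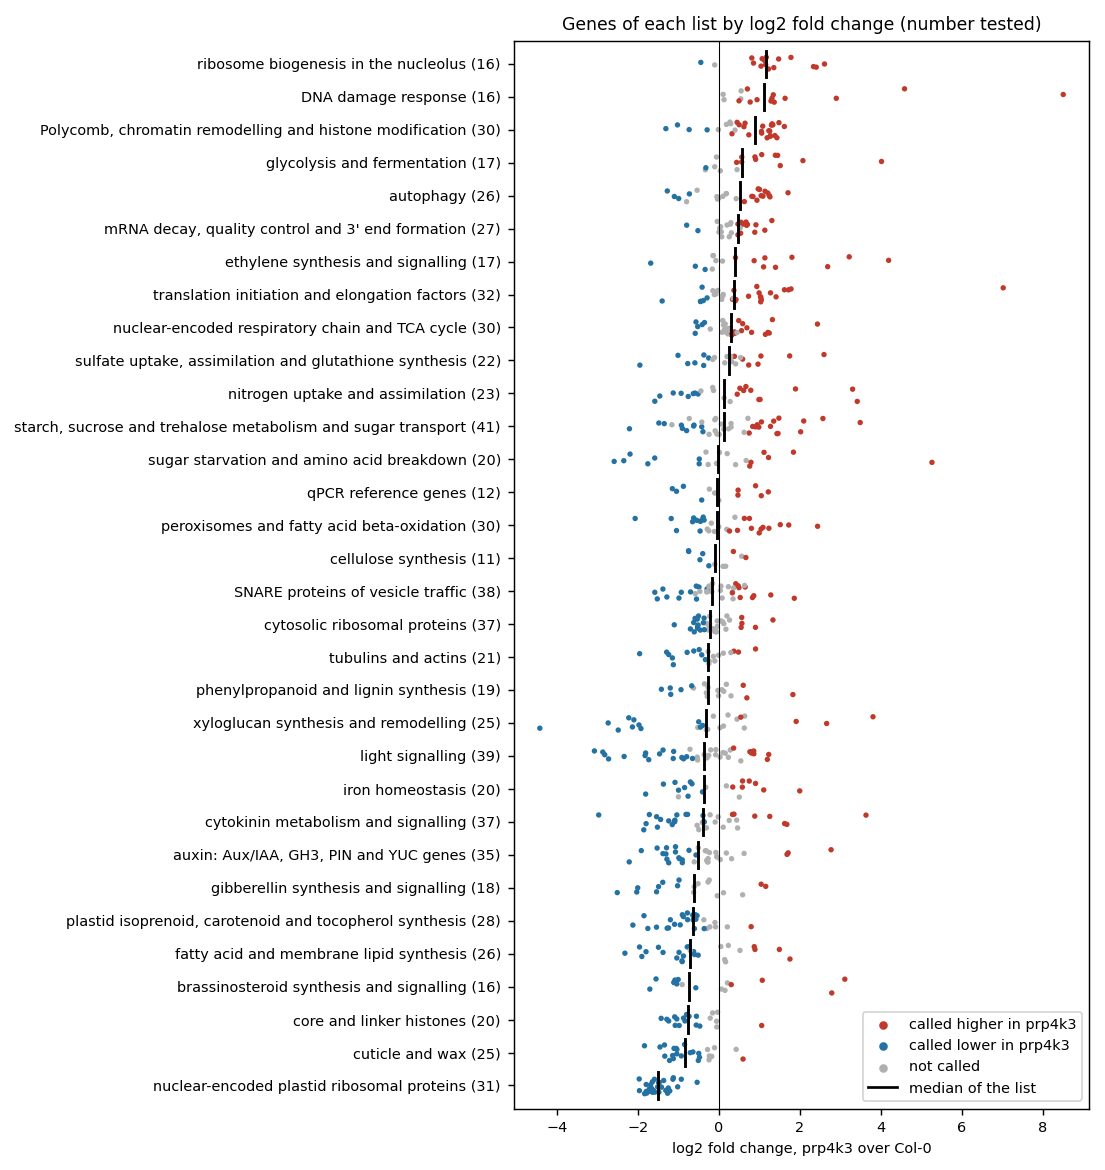
Log2 fold change of prp4k3 over Col-0 (horizontal axis) of each tested gene in the lists (rows, number tested in brackets), called higher in red, called lower in blue and not called in grey, with a black bar at each list's median. Ribosome biogenesis lies at the top with a median of 1.16 and plastid ribosomal proteins at the bottom with -1.51; total-count scaling would move each point right by about 0.56, turning medians that lie less than that below 0 to positive, and the points of NAC085 and TIF3C2 have 0 counts in Col-0, so their place depends on the fit's prior count.

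Among the 8206 tested genes that have a symbol, and outside a set of symbols of defence and photosynthesis genes, the largest rises among those with a mean of 20 CPM or more in one genotype lay between 5.54 and 7.97 on the log2 scale. GLP9, a germin-like protein gene, had 897 counts in prp4k3 and 2 in Col-0, a ratio of 287 (95% exact interval 79.1 to 2370, counting error only). MSRB8, a methionine sulfoxide reductase, had 978 counts in prp4k3 and 3 in Col-0, a ratio of 208 (71.1 to 1012); its fitted log2 fold change was 7.56, or 8.45 without Col-0 library 3. AIG1, a GTPase gene first found in bacterial infection, had 296, 220 and 331 CPM in prp4k3, against 2.04, 1.96 and 3.58 CPM in Col-0 (6.80 ± 0.26, adjusted p = 3.49e-07). PGAZAT, a pectin-cutting polygalacturonase of organ shedding, had 29.3, 32.5 and 28.2 CPM in prp4k3, against 1.09, 0 and 0.133 CPM in Col-0 (6.22 ± 0.43, adjusted p = 2.78e-06), or 8.59 without Col-0 library 1. ABCG40, a transporter of abscisic acid, had 237, 197 and 291 CPM in prp4k3, against 3.94, 1.35 and 5.70 CPM in Col-0 (6.06 ± 0.35, adjusted p = 1.16e-06). DOX1, which oxidises fatty acids, had 184, 266 and 213 CPM in prp4k3, against 6.12, 1.47 and 1.99 CPM in Col-0 (6.13 ± 0.39, adjusted p = 1.67e-06), or 6.95 without Col-0 library 1. LHT7, an amino acid transporter relative, had 33.5, 23.4 and 22.9 CPM in prp4k3, against 0.544, 0.367 and 0.265 CPM in Col-0 (6.05 ± 0.31, adjusted p = 6.93e-07). CHI, a chitinase relative (6.60), BG3, a glucanase (5.54), and ARCK1, a receptor-like kinase (5.54 ± 0.27), completed this group. Each gene had its libraries apart because that was a condition of the choice. GLP9, MSRB8, PGAZAT, LHT7 and BG3 passed the filter on low counts only through prp4k3, so they had to come out higher. AIG1, CHI, BG3 and ARCK1 are also known from pathogen or stress responses but were not among the symbols set aside.

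The largest falls among genes with a symbol, on the same rule, were smaller, between -4.85 and -3.02. AIF1 (-4.85), the xylosidase gene BXL2 (-4.45) and the trichome regulator gene GIS (-3.59, or -4.33 without prp4k3 library 2) led them. BXL1, a second xylosidase of the wall, had 31.1, 115 and 38.8 CPM in prp4k3, against 685, 618 and 395 CPM in Col-0 (-3.20 ± 0.46, adjusted p = 0.000218), or -4.02 without prp4k3 library 2. DELTA-TIP, a water channel of the vacuole, had 269, 301 and 238 CPM in prp4k3, against 2454, 2232 and 2261 CPM in Col-0 (-3.10 ± 0.12, adjusted p = 3.49e-07). AUF1, an F-box protein gene induced by auxin, had 19.1, 28.2 and 16.5 CPM in prp4k3, against 217, 208 and 113 CPM in Col-0 (-3.08 ± 0.28, adjusted p = 1.23e-05). The esterase gene MES18 had 4.64, 4.43 and 3.53 CPM in prp4k3, against 25.01, 39.1 and 42.4 CPM in Col-0 (-3.08 ± 0.22, adjusted p = 3.37e-06). RHA2A, a ubiquitin ligase gene of abscisic acid responses, had 12.9, 20.2 and 10.01 CPM in prp4k3, against 105, 141 and 114 CPM in Col-0 (-3.06 ± 0.24, adjusted p = 4.95e-06). The purple acid phosphatase gene PAP3 had 4.72, 5.71 and 7.07 CPM in prp4k3, against 52.9, 51.8 and 37.0 CPM in Col-0 (-3.02 ± 0.19, adjusted p = 1.88e-06). BBX32, given with the light genes, was the tenth. Libraries that do not overlap between genotypes were a condition for choosing these 10 genes, so their separation is not a separate result.

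Markers of cell types and organs were measured in the same libraries. The 4 mesophyll markers, all photosynthetic genes, were called lower past 2-fold, with summed levels of 22603, 23564 and 23927 CPM in prp4k3, against 73336, 75742 and 76407 CPM in Col-0. Xylem markers overlapped, at 41.6, 30.8 and 39.4 CPM in prp4k3 and 41.3, 40.6 and 39.5 CPM in Col-0. Phloem markers summed to 430, 436 and 418 CPM in prp4k3 and 397, 384 and 345 CPM in Col-0. Of these 5 genes the proton pump gene HA3 was called higher (1.52 ± 0.11) and PP2-A1 was called lower (-0.67 ± 0.13, adjusted p = 0.00111). SUC2 (0.30), APL (-0.33) and SEOR1 (-0.15, or 0.41 on total counts) were not called. Their median of -0.15 became 0.41 on total counts. Guard cell and stomatal lineage markers summed to 63.7, 70.3 and 61.5 CPM in prp4k3 and 84.9, 96.2 and 81.2 CPM in Col-0. Of these 10 genes 2 were called higher and 5 lower, with a median of -0.49 that became 0.06 on total counts, where 3 were called higher and 2 lower. The potassium channel gene KAT1 of guard cells was called higher (0.92 ± 0.21, adjusted p = 0.00388), as was the channel gene GORK (0.86 ± 0.34, adjusted p = 0.0489), whose call was lost without any one library other than Col-0 library 2. MYB60, TMM, SPCH, EPF1 and EPF2 were called lower, EPF2 by the most (-1.53 ± 0.22, adjusted p = 0.000224). Root markers summed to 48.7, 51.3 and 34.6 CPM in prp4k3 and 53.3, 66.7 and 78.7 CPM in Col-0, with PLT1 at 0 counts, and the 2 root markers tested had a median of -0.56, which became 0.0005 on total counts. Flower and meristem markers summed to 13.3, 2.81 and 5.89 CPM in prp4k3, against 0.951, 1.71 and 1.06 CPM in Col-0. Of these, the floral identity gene AP1 had 78 counts in prp4k3 and 3 in Col-0, a ratio of 16.6 (95% exact interval 5.48 to 82.3, counting error only). AP3 had 50 counts in prp4k3 and 1 in Col-0, a ratio of 31.9 (5.48 to 1287). In the same order PI had 95 and 4 counts, AG 42 and 18, WUS 5 and 0, and CLV3 0 and 3. AP1 alone of these markers was tested. It passed the filter on low counts only through prp4k3, so its test is no separate support. Per library AP1 had 3.36, 0.938 and 2.103 CPM in prp4k3, against 0, 0.245 and 0.132 CPM in Col-0 (3.92 ± 0.79, adjusted p = 0.00171), or 4.74 without Col-0 library 2. The 9 seed and 2 pollen markers were at or under the floor, with summed levels of at most 0.252 CPM in prp4k3 and 0.265 CPM in Col-0. Other genes of seed or pollen were not looked at as markers. The part of these cell types in the results above was not tested.

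The authors' deposited table of the same comparison lists 23382 nuclear genes, of which it holds 6793 as higher and 5688 as lower in prp4k3. Of the 18203 genes tested here, 11500 were called in both in the same direction and 0 in opposite directions.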

How the data were processed

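Leaf total RNA of prp4k3 and Col-0, 3 libraries each, was sequenced after TruSeq Stranded Total RNA preparation, per the labels' protocols; TopHat2, SAMtools, HTSeq and edgeR are named in the submitters' processing notes. The genome build, annotation and use of strand in counting are in none of the sources used, so overlapping and antisense genes, and near-identical copies, are uncertain. The deposited table holds raw counts per gene beside the authors' log2 fold changes and adjusted p-values, and counts that the authors normalized and rounded (score columns, not used); the counts were used for every test. Organelle, AT.TE and At.NC rows were removed, libraries scaled by TMM, genes filtered by filterByExpr, and genotypes compared by edgeR 4.0.16 quasi-likelihood F-tests and by a test against 2-fold (glmTreat) in R 4.3.3, two-sided, at a Benjamini-Hochberg adjusted p under 0.05 over all tested genes; the script was tested on simulated data. CPM are TMM-scaled counts over nuclear genes, and SE are from the fit. Symbols came from an annotation of assembly TAIR10.1, used for names only; list members without a symbol there were dropped. Named genes were the largest called rise and fall with libraries apart and a mean of at least 5 CPM, and the most counted member, of each list, plus the 10 largest rises and falls past 2-fold overall among symbol-bearing genes whose mean reaches 20 CPM and that have no place on a list of defence and photosynthesis symbols, which leaves in some genes known from defence; members past 2-fold named beside them were chosen after their values were seen. Members and lists were chosen with earlier results of these data known. limma 3.58.1 and DESeq2 1.42.0 served as alternatives. Pairs of libraries of a group differed beyond sampling noise (chi-square per degree of freedom 5.46 to 16.1), so each counted as 1. Some genes that the rule for named genes picks are not reported here.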

Additional observations from a re-analysis of the deposited data

How the results depend on the processing

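RLE and all-row scaling, limma-voom, DESeq2 (11233 calls) and the other filters left each count of calls within 1.5 times. Total-count scaling gave 10238 genes higher and 2678 lower, and 4448 higher and 503 lower past 2-fold; the cause was not tested. The 2-fold test in DESeq2 called 2362 genes (1403 higher, 959 lower), and an adjusted p with a fitted fold of at least 2 called 6122 (3504 higher, 2618 lower), of which the second tests against no change; the cause was not tested for DESeq2. Leaving out 1 library gave 10821 to 12040 calls (5618 to 6359 higher, 5099 to 5681 lower) and 3173 to 3855 past 2-fold (1873 to 2238 higher, 1266 to 1617 lower). Of 145 named genes, on total counts 108 kept their call and its direction or stayed uncalled, and 16 lost and 9 gained a call. Genes uncalled on both scalings count among the 108 whatever their direction. The other 12 turned and were called on at least 1 scaling: HD1 0.27, P40 0.36, TPI 0.24, GAPC2 0.46, HTB4 0.34, ATML1 0.20, SEOR1 0.41, ACT8 0.13, YLS8 0.32, UBQ5 0.56, DIM1A 0.11 and APS1 0.19. The labels' replicate numbers do not pair libraries (correlations of deviations -0.049, 0.052 and -0.043); with the replicate block 11652 genes were called (6126 higher, 5526 lower) and 3580 past 2-fold (2126 higher, 1454 lower). Genes near the floor of 3 counts are limited by depth.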

Other observations

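Genes counted in one genotype and absent from the other were unequally divided. In prp4k3, 1449 nuclear genes had a count that had none in Col-0, and 588 the other way. With at least 10 counts in a genotype and 0 in the other the numbers were 197 for prp4k3 and 4 for Col-0. A fixed count reached lower levels in prp4k3, where 3 counts in a library were 0.240 to 0.256 CPM, against 0.367 to 0.408 CPM in Col-0. The part of this in the division was not tested. Named after their values were seen, AATP1, a mitochondrial AAA-ATPase, had 114, 111 and 106 counts in the prp4k3 libraries and 0 in Col-0, at least 70.4-fold higher against a floor of 3 counts over the group. GolS4, a galactinol synthase, had 129 counts in prp4k3 and 0 in Col-0 (at least 27.5-fold higher), the small GTPase gene RABA1e 112 (at least 23.8-fold), the fucosyltransferase gene FUT6 92 (at least 19.6-fold) and the floral factor gene SEP3 64, of which prp4k3 library 1 held 37. In Col-0, SP1L5, a gene of a family that directs cell expansion, had 7, 10 and 7 counts, against 0 in prp4k3.

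Symbol families with at least 8 tested members differed in their medians, given here for all tested members whatever their calls. Among the lowest outside photosynthesis were the auxin-responsive SAUR genes (-1.96, 10 of 12 called lower), the arabinogalactan proteins FLA (-1.47, 12 of 13), the microRNA genes MIR (-1.28, 18 of 20), the symbols that start with PIP, which join aquaporins and lipid kinases (-1.18, 11 of 17 lower and 1 higher) and the ENODL proteins (-1.16, 7 of 9 lower and 1 higher). Among the highest were the actin-binding NET proteins (1.33, 6 of 9 called higher), the calcium-dependent kinases CPK (1.34, 15 of 20) and the transporters ABCC (1.88, 13 of 15 higher and 1 lower). Other families held large changes both ways: among 46 UGT glycosyltransferases 16 passed the 2-fold test as higher, led by UGT73D1 (6.57), and 5 as lower, led by UGT85A4 (-2.75), and among 28 UMAMIT transporters 4 passed each way, led by UMAMIT33 (4.28) and UMAMIT17 (-1.71).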
